A study of Mus musculus with 4 samples.

Results

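Serpina3n, S100b, S100a6 and Cryab, 4 genes that are read as signs of reactive or stressed glia, were followed in sections of mouse striatum. They were taken by name as 4 of the 383 genes of a MERFISH panel (multiplexed error-robust fluorescent in situ hybridization, which counts single RNA molecules of each panel gene inside segmented cells). No cut on measured values was used to choose them, but earlier results of these data were known at the choice. The samples were 4 bilateral coronal striatal sections of wild-type C57BL/6NTac mice, 2 from the Young group (Young replicates 1 and 2, 2 months old) and 2 from the Aged group (Aged replicates 1 and 2, 18 months old), with no transgene and no treatment in either group. The question was in which cells and in which tissue each gene was found, and whether its level differed between 2 and 18 months. The study's methods describe all replicates as biological, but the labels do not tie sections to animals. The p-values for age below rest on the spread between these sections. Those for tissue zone, and for its interaction with age, rest on how the difference between zones within a section varies between sections.

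Serpina3n encodes a secreted serine protease inhibitor and is widely used as a sign of reactive astrocytes and of the oligodendrocyte states seen in disease. S100b and S100a6 encode small calcium-binding proteins of the S100 family: S100b is a common marker of astrocytes that oligodendrocyte lineage cells also make, and S100a6 is associated with a subset of astrocytes and with progenitor-like glia. Cryab encodes alpha-B crystallin, a small heat shock protein and chaperone that mature oligodendrocytes make in quantity.

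In the GENCODE annotation of GRCm38 all 4 are protein-coding genes on the plus strand: Serpina3n on chromosome 12 from 104406729 to 104414329, S100b on chromosome 10 from 76253853 to 76261159, S100a6 on chromosome 3 from 90612882 to 90624181 and Cryab on chromosome 9 from 50751325 to 50756636. The probe sequences were not used here, so how well each readout separates its gene from relatives was looked at only in the transcripts. Serpina3n is 1 of 14 Serpina3 genes that the annotation lists side by side on chromosome 12 between 104112724 and 104414329, of which 10 are protein-coding and 1, Serpina3n itself, is on the panel. Of the 2035 stretches of 30 bases in its longest coding transcript (2064 bases), 460 (22.6%) also occur in a transcript of another gene, most often Serpina3f. For S100b this was so for 4 of 1455 stretches, and for S100a6 and Cryab for 0 of 702 and 0 of 1088. A pair of overlapping stretches from exon 2 of 5 of Serpina3n shows how near a shared stretch and a private one lie. The first, chr12:104409125-104409154, also occurs in 6 relatives (Serpina3c, Serpina3e-ps, Serpina3g, Serpina3h, Serpina3i and Serpina3l-ps), and the second, chr12:104409115-104409144, occurs in no other gene. Both are written 5′ to 3′ on the plus strand, and the capitals mark the bases of the second that lie outside the first.
Shared stretch: aggagaaggcaagggctctgtaccaggctg
Private stretch: ACAGAATTCCaggagaaggcaagggctctg
A probe against the first would also bind the relatives, so a Serpina3n level is here the sum of what its probes detected.

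Between 68011 and 74624 cells per section passed the filters, with 18765491 to 36035355 transcripts in all. The median per kept cell was 400 and 325 transcripts in Young replicates 1 and 2, and 215 and 293 in Aged replicates 1 and 2. Depth thus ran with age, and its part in the differences between sections and ages was not tested. Clustering without these 4 genes gave 7 classes, each named by marker lists: astrocyte-like (7 of 7 markers over 1.5-fold above the other cells), oligodendrocyte-like (6 of 6), OPC-like (oligodendrocyte precursors, 4 of 4), microglia-like (7 of 7), vascular-like (5 of 5 mural markers, with endothelial-like finer clusters inside it), medium spiny neuron-like (8 of 8, the projection neurons of the striatum) and neuron-like (5 of 6). A cell was called mixed, and left out, if it held 3 or more markers of its own class together with 3 or more of some other class. This took 48.9% of the kept cells. It left 3284 to 4038 astrocyte-like, 2733 to 5334 oligodendrocyte-like and 451 to 655 OPC-like cells per section. These were 49.6% to 59.7%, 31.3% to 45.7% and 28.1% to 35.5% of the kept cells of these classes. In each of these classes the share left was lowest in Young replicate 1, the deepest section, and highest in Aged replicate 1, the shallowest. The cells it left were shallow, with a median of 97 to 122 transcripts in astrocyte-like, 97 to 161 in oligodendrocyte-like and 66 to 90 in OPC-like cells of a section, against medians of 179, 245 and 213.5 over all kept cells of these classes. Levels are given as transcripts per 10000 panel transcripts of a class in a section, and they are compared between cells, zones and ages for 1 gene at a time, never between genes. A fall in the number of molecules per cell and a rise of other panel genes cannot be told apart on this scale.

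S100b was highest in OPC-like cells, at 131 and 127 per 10000 in Young replicates 1 and 2, and at 95.8 and 126 in Aged replicates 1 and 2. Oligodendrocyte-like cells came next, at 51.8, 50.7, 46.4 and 67.4 in the same order. Astrocyte-like cells held 42.3, 47.4, 43.8 and 56.8. The OPC-like range lay wholly above the oligodendrocyte-like range, whereas the oligodendrocyte-like and astrocyte-like ranges overlapped. Microglia-like cells held 23 to 41.7 and vascular-like cells 26.5 to 33.6, which overlap each other and lie below the astrocyte-like range. Neuron-like cells held 13.3 to 22.1 and medium spiny neuron-like cells 10.01 to 14.8. In the 7 classes Aged replicate 2 was the highest section in 6. The OPC-like sums also held oligodendrocyte markers at 94.9 to 301 per 10000 (6 genes) and astrocyte markers at 248 to 494 (7 genes), beside 893 to 1139 for the 4 OPC markers; the part of these cells in the S100b level was not tested.

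Thinned to 100 transcripts a cell, which makes cells of unequal depth comparable and leaves out shallower ones (290 to 387 OPC-like, 890 to 2718 oligodendrocyte-like and 1388 to 1915 astrocyte-like cells per section), 57.6% to 66.95% of OPC-like cells held an S100b transcript. This OPC-like share rests on 147 to 268 cells per section. In oligodendrocyte-like cells the share was 28.1% to 38.8% and in astrocyte-like cells 30.3% to 40.9%. Without thinning the shares were 42.4% to 59.0%, 29.9% to 42.0% and 33.0% to 42.9%. Medium spiny neuron-like cells, taken as a class that should lack the gene, showed 10.4% to 14.5% thinned and 24.0% to 32.9% unthinned at a median depth of 217 to 378 transcripts. The OPC-like, oligodendrocyte-like and astrocyte-like shares lay above this background after thinning. Microglia-like cells showed 16.6% to 27.3% thinned and vascular-like cells 19.4% to 24.2%, also above it. The lowest oligodendrocyte-like share (28.1%) was thus only just above the highest microglia-like one.

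Cryab marked oligodendrocyte-like cells. Its level there was 88.3 and 88.7 at 2 months, and 61.0 and 99.6 at 18 months. OPC-like cells, next in order, held 16.0, 15.8, 9.02 and 16.9, with no overlap. Vascular-like cells held 5.88 to 9.22, microglia-like cells 3.29 to 6.25 and astrocyte-like cells 4.05 to 5.14, each overlapping the next. The neuron-like range (2.29 to 3.51) lay below the astrocyte-like one. Medium spiny neuron-like cells were last at 1.11 to 1.76. Aged replicate 1, the shallowest section, was the lowest for Cryab in 7 of 7 classes. After thinning, 42.8% to 61.0% of oligodendrocyte-like cells held a transcript (40.7% to 64.1% unthinned), against 1.20% to 1.86% of medium spiny neuron-like cells (2.85% to 5.8% unthinned). Among the finer clusters of oligodendrocyte-like cells, the largest held 91.5, 92.0, 64.8 and 104 per 10000, and a shallow one (median 43 transcripts over its kept cells), led by the myelin and oligodendrocyte genes Il33, Mal and Mag, held 71.8, 78.5, 54.1 and 82.8. The second largest, of deep cells (median 446 transcripts), was nearly all mixed: its 36 to 83 unmixed cells per section held 37.6, 27.6, 17.3 and 39.5.

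Serpina3n was low everywhere. Its order by mean level was OPC-like (2.42, 2.72, 3.61 and 5.72 in Young replicates 1 and 2 and Aged replicates 1 and 2), astrocyte-like (2.75, 2.49, 1.91 and 2.81), neuron-like (2.39, 2.04, 1.47 and 2.18), oligodendrocyte-like (1.59, 1.15, 1.81 and 3.07) and vascular-like (2.20, 1.77, 1.3 and 1.91), and each of these ranges overlaps the next. Below them, without overlap, lay medium spiny neuron-like cells (0.379 to 0.895) and microglia-like cells (0.0966 to 0.460, on 1 to 5 transcripts per section). The OPC-like values rest on 20 to 27 transcripts per section. A set of 6 cytokine and matrix protease genes (Cxcl3, Il6, Mmp3, Mmp13, Tnf and Cxcl1), picked for comparison after the levels were seen, ranged from 0.215 to 3.77 per 10000 in astrocyte-like cells, 0.217 to 2.98 in oligodendrocyte-like cells and 0.180 to 2.89 in OPC-like cells. Pooled over sections, Serpina3n lay inside or near these ranges in astrocyte-like and oligodendrocyte-like cells, where Tnf in Young replicate 1 set the upper end. In Aged replicates 1 and 2 it lay above all 6 genes in both classes. The highest of them there, Tnf, was at 1.64 and 1.24 in astrocyte-like and at 1.40 and 1.09 in oligodendrocyte-like cells. In Young replicate 2 Serpina3n was also above Tnf (2.35) in astrocyte-like cells, but not in oligodendrocyte-like cells (2.62). It ranked 228 to 247 and 183 to 256 of the 383 panel genes in these 2 classes. In neuron-like cells Cxcl1 was at 4.25, 1.36, 1.78 and 2.51 in the same order of sections. There it lay above Serpina3n in every section but Young replicate 2.

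Within the vascular-like class Serpina3n was highest in a single finer cluster. Its leading genes mixed fibroblast genes (Aldh1a2, Mgp) with macrophage and antigen presentation genes (Cd74, Lyz2, H2-Eb1, Mrc1) and Gfap, so it was given no cell type name. This Aldh1a2-led cluster held Serpina3n at 5.08, 4.17, 2.89 and 4.05 per 10000. The vascular-like cells outside this cluster held 0.535, 0.589, 0.579 and 0.792. The 4 values of the first lay above all 4 of the second. Between 86.1% and 88.0% of its unmixed cells lay in tissue assigned neither to striatum, to white matter nor to neuron-rich tissue, and 2.30% to 4.46% lay in striatum. Vascular-like cells of the striatum held 0.176 to 0.599, on 2 to 6 transcripts, and those of the unassigned tissue 1.95 to 3.54. This cluster also held Cryab at 14.1, 15.7, 10.2 and 14.8, against 4.48, 4.86, 3.93 and 6.25 in the other vascular-like cells.

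**Figure D1:**
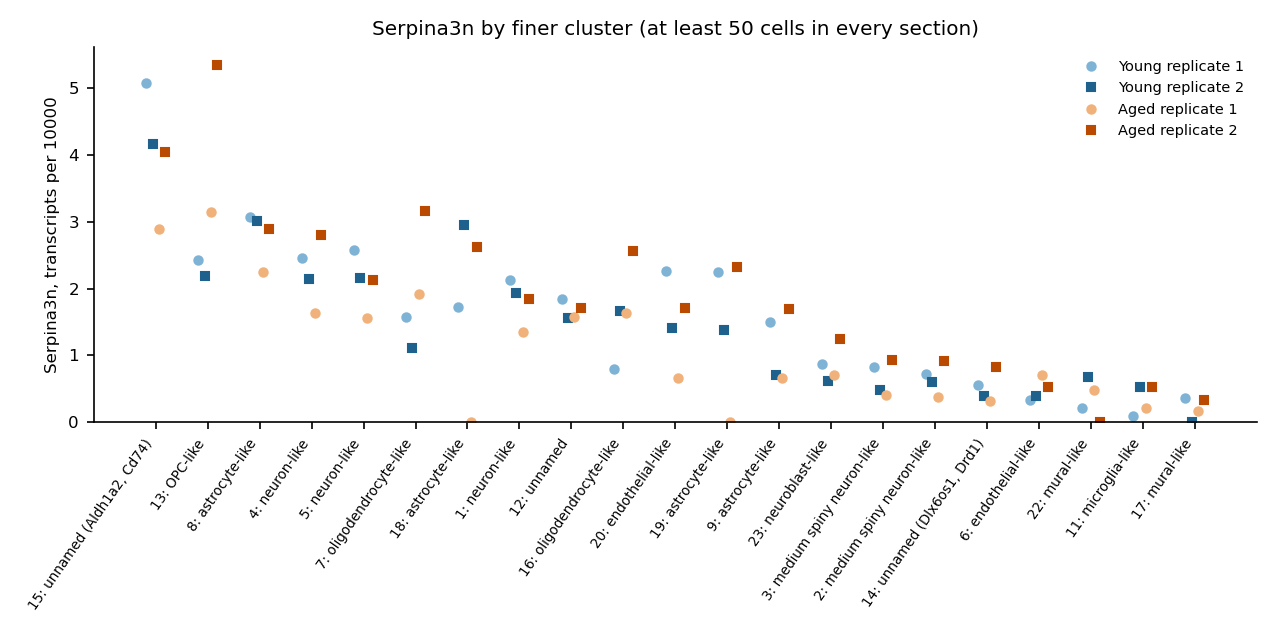
Serpina3n in transcripts per 10000 panel transcripts (linear axis from 0) for each finer cluster with at least 50 unmixed cells in every section, ordered by mean; each point is 1 section. Unnamed cluster 15 (2.89 to 5.08), led by fibroblast, macrophage and antigen presentation genes, has the highest mean, ahead of the OPC-like and the main astrocyte-like cluster, whose ranges overlap it, and medium spiny neuron-like, mural-like and microglia-like clusters are among the last.

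S100a6 was highest in astrocyte-like cells, at 1.5, 1.94, 1.80 and 1.90 per 10000. OPC-like cells overlapped them at 0.879, 1.41, 1.80 and 1.06, on 5 to 14 transcripts per section. Microglia-like (0.580 to 1.29) and vascular-like cells (0.791 to 1.02) followed, and oligodendrocyte-like (0.470 to 0.714), neuron-like (0.415 to 0.719) and medium spiny neuron-like cells (0.327 to 0.466) lay below the vascular-like range. After thinning, 1.39% to 1.94% of astrocyte-like cells held a transcript (2.05% to 2.65% unthinned) against 0.355% to 0.482% of medium spiny neuron-like cells (0.885% to 1.53% unthinned). The astrocyte-like level was thus above the other classes, apart from OPC-like cells, in every section. Pooled over sections, it lay within the range of the 6 cytokine and protease genes in the same cells. In Young replicates 1 and 2 only Tnf, at 3.77 and 2.35, was above S100a6. In Aged replicates 1 and 2 S100a6 lay above all 6 genes, of which Tnf was the highest, at 1.64 and 1.24. S100a6 ranked 250 to 266 of 383 in astrocyte-like cells.

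**Figure D2:**
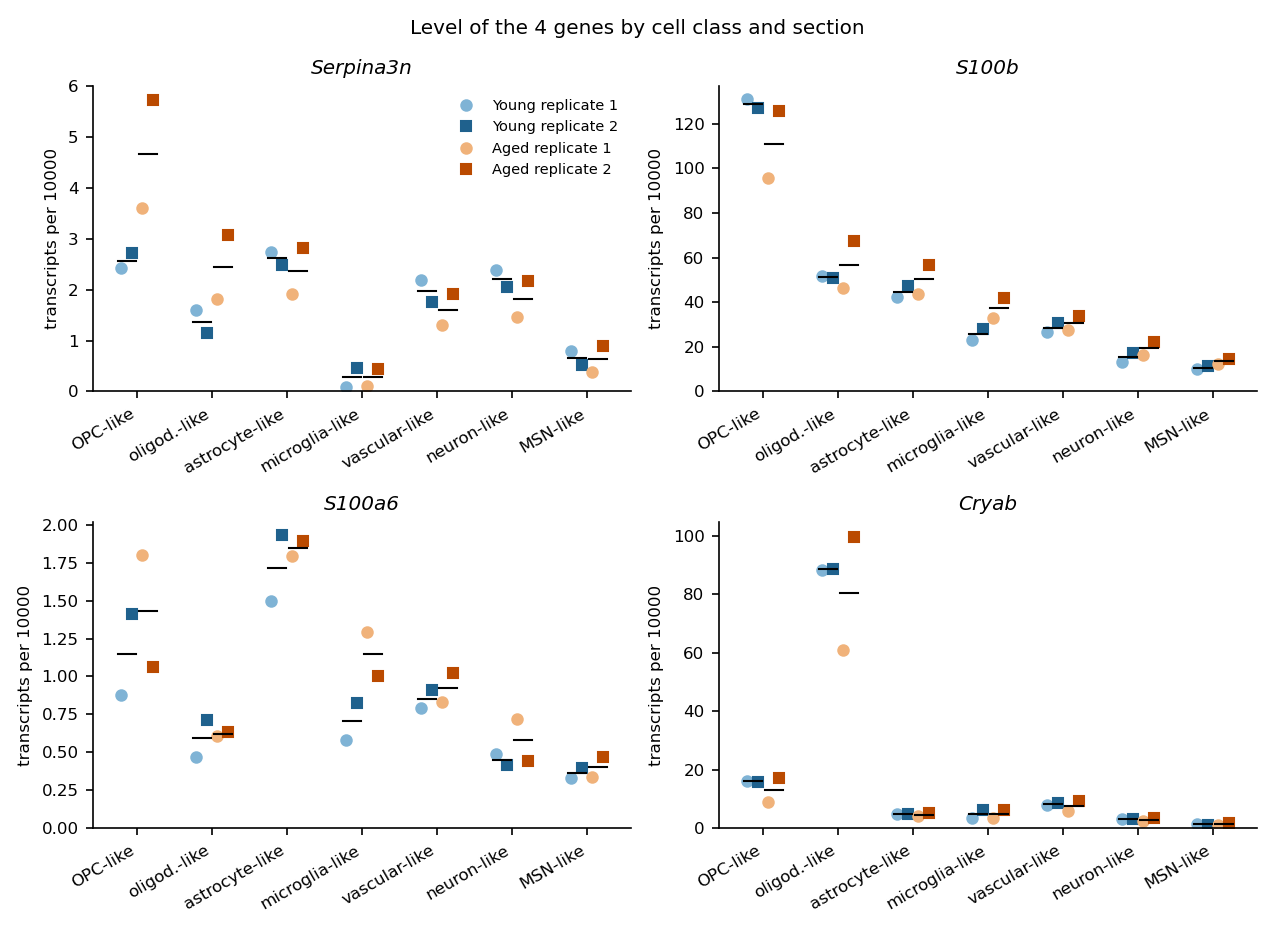
Level of each gene in transcripts per 10000 panel transcripts (linear axes from 0, a separate scale per gene) in 7 cell classes over the whole section, mixed cells left out; points are the 4 sections and short lines the mean of the 2 sections of an age (MSN, medium spiny neuron; oligod., oligodendrocyte). S100b peaks in OPC-like cells and Cryab in oligodendrocyte-like cells, while Serpina3n and S100a6 stay below 6 and 2.

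Over the 24 combinations of class and tissue zone with at least 50 unmixed cells in every section, the panel genes whose levels ran most like those of each gene were found by Pearson's r of log2(level + 0.1). Cryab ran with Cldn11 (r = 0.95), a tight junction protein of myelin, Gatm (0.93) and Phldb1 (0.93). S100b ran with Olig1 (0.87), a transcription factor of the oligodendrocyte lineage, Sirt2 (0.87) and Ifi27 (0.86). S100a6 ran with F3 (0.80) and Plpp3 (0.79), both astrocyte markers, and Il18 (0.78). For Serpina3n the nearest were Sirt5 (0.75), Saraf (0.74) and Tubb4b (0.70). Between the 4 genes themselves, r ran from 0.21 (S100a6 and Cryab) to 0.66 (S100b and Cryab). These points share libraries and neighbouring cells and describe the pattern only.

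White matter was set apart from striatum by cell composition alone (at least 50% oligodendrocyte-like cells within 100 µm, against at least 40% medium spiny neuron-like cells within 150 µm). It held 164 to 270 unmixed astrocyte-like and 908 to 2282 oligodendrocyte-like cells per section, and the striatum 693 to 810 and 509 to 810. White matter was compared with striatum within each section, for 7 of 8 gene and class combinations, since S100a6 in astrocyte-like cells was too low to be tested. Of the 7, 4 passed an adjusted p of 0.05, against 40.1% of the 252 genes tested in astrocyte-like cells and 33.4% of the 314 in oligodendrocyte-like cells.

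Cryab and Serpina3n were higher in astrocyte-like cells of the white matter. Cryab stood at 2.96, 2.99, 2.16 and 4.35 per 10000 in striatum and at 13.8, 13.5, 5.96 and 11.5 in white matter. White matter was higher in 4 of 4 sections and the zones did not overlap (log2 fold change 1.99, standard error 0.26, adjusted p = 0.000919, quasi-likelihood test of edgeR, adjusted by Benjamini-Hochberg). Serpina3n stood at 2.64, 2.13, 0.960 and 2.52 in striatum, on 8 to 33 transcripts, and at 5.58, 4.51, 2.09 and 4.77 in white matter, on 7 to 19. It was higher in white matter in 4 of 4 sections, with a log2 fold change of 1.20 (standard error 0.25, adjusted p = 0.00717 by edgeR), although Aged replicate 1 in white matter lay below the striatum of the other sections. Oligodendrocyte markers in the same astrocyte-like sums were higher as well, from 17.3 to 27.3 per 10000 in striatum to 51.2 to 71.2 in white matter (6 genes, none at 0). In astrocyte-like cells without a single transcript of those 6 markers, Cryab was at 2.68, 2.05, 2.33 and 3.92 in striatum and 10.1, 5.08, 6.70 and 5.07 in white matter (log2 1.48, adjusted p = 0.011, edgeR). Serpina3n was then too low to be tested, at 1.92, 2.20, 1.16 and 2.51 against 4.49, 4.07, 2.23 and 1.69, so that Aged replicate 2 was lower in white matter.

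S100b did not pass in astrocyte-like cells. It was 34.7, 36.2, 32.2 and 50.1 in striatum and 30.5, 27.1, 24.1 and 47.4 in white matter, lower in 4 of 4 sections on this scale, with a log2 fold change of −0.10 after normalization (standard error 0.15, adjusted p = 0.684, edgeR). S100a6 rested on 3 to 7 transcripts per section in white matter.

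In oligodendrocyte-like cells the zones separated S100b and Cryab in opposite directions. S100b stood at 76.3, 75.6, 62.3 and 89.7 in striatum and at 34.7, 37.1, 34.6 and 59.6 in white matter. It was lower in white matter in 4 of 4 sections, and the lowest striatal value lay above the highest of the white matter. The log2 fold change, white matter over striatum, was −0.61 (standard error 0.14, adjusted p = 0.00479, edgeR). Cryab rose from 89.4, 89.3, 53.9 and 94.6 in striatum to 95.2, 99.0, 69.1 and 111 in white matter, again in 4 of 4 sections but with overlap, by 0.49 (standard error 0.12, adjusted p = 0.00848, edgeR). The size of both fold changes depends on the TMM normalization, but only the Cryab call was lost without it. With library totals alone S100b was at −0.90 and Cryab at 0.20, the latter short of the threshold (adjusted p = 0.0579), and the median of all genes moved from 0.0935 to −0.19. In oligodendrocyte-like cells with no transcript of any astrocyte marker, S100b was 90.3, 66.2, 65.7 and 93.1 in striatum and 40.1, 41.1, 30.8 and 52.5 in white matter (log2 −0.86, adjusted p = 1.84e-09, edgeR). With mixed cells kept S100b did not pass, at 36.9, 44.1, 30.7 and 42.9 in striatum and 34.7, 34.6, 32.5 and 56.9 in white matter (log2 0.12, adjusted p = 0.509, edgeR). Medium spiny neuron markers in the unmixed oligodendrocyte-like sums were at 51.1 to 125 per 10000 in striatum and 4.91 to 7.02 in white matter (8 genes), and astrocyte markers at 54.8 to 86.0 and 50.5 to 58.4; the part of the former in these differences was not tested. Leaving out Young replicate 2 ended both calls (adjusted p = 0.0886 and 0.066, edgeR), and leaving out Aged replicate 2 did so for Cryab (0.109).

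Serpina3n and S100a6 did not pass in oligodendrocyte-like cells. Serpina3n was 1.46, 1.12, 1.63 and 3.29 in striatum and 1.40, 0.667, 1.73 and 2.97 in white matter (log2 0.14, standard error 0.24, adjusted p = 0.728, edgeR). S100a6 was 0.450 to 0.980 in striatum and 0.535 to 0.772 in white matter (log2 0.17, standard error 0.32, adjusted p = 0.75, edgeR).

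**Figure D3:**
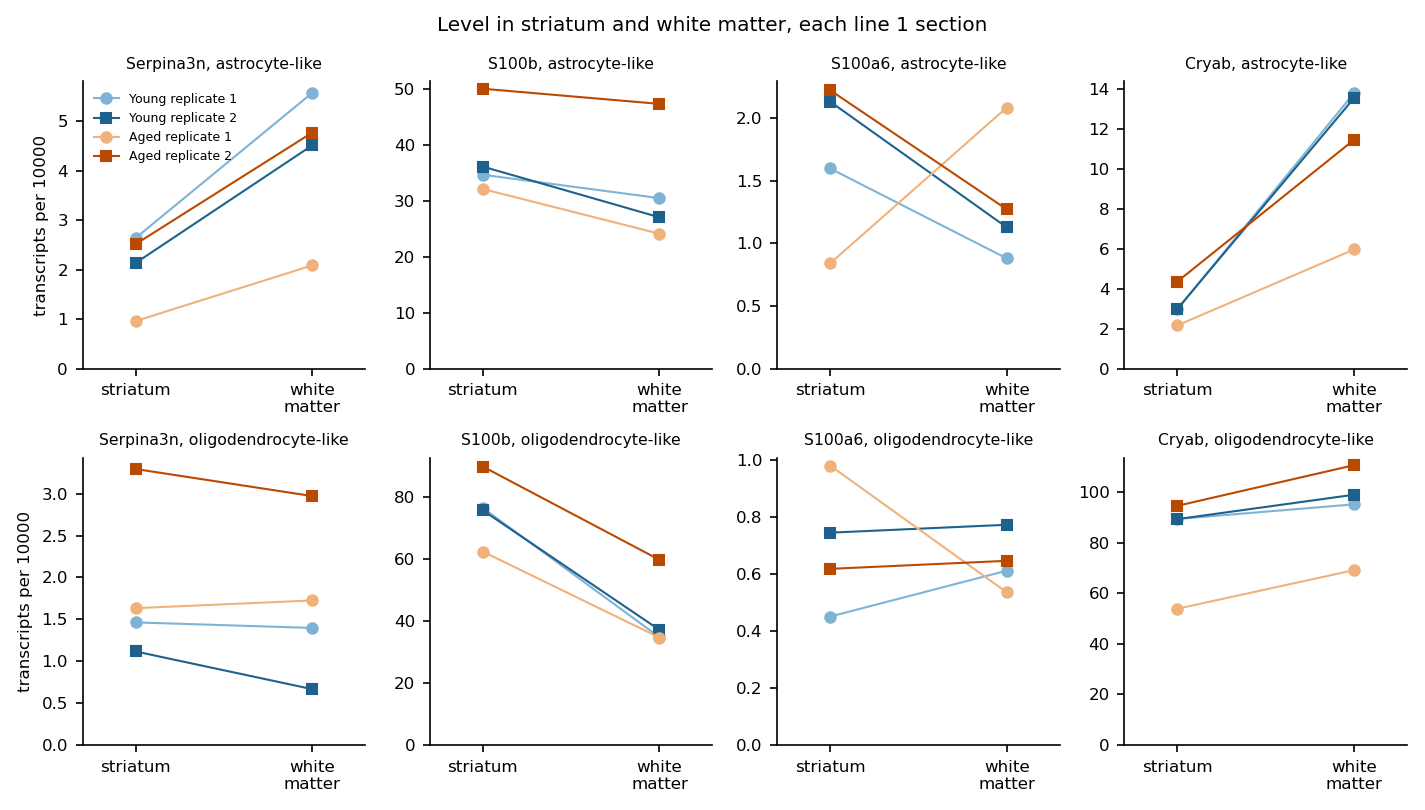
Level in transcripts per 10000 (linear axes from 0, a separate scale per panel) of each gene in striatum and white matter, upper row astrocyte-like and lower row oligodendrocyte-like cells; each line joins the 2 zones of 1 section. Serpina3n and Cryab rise in astrocyte-like cells of every section, and in oligodendrocyte-like cells S100b falls and Cryab rises in every section.

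S100b and Cryab were also read in the same cells. Thinned to 100 transcripts, 31.7% to 45.2% of the Cryab-positive oligodendrocyte-like cells of the striatum held S100b, against 35.9% to 43.9% of the Cryab-negative ones. In white matter the shares were 24.0% to 36.6% and 22.7% to 37.3%. At least 12.3% and at most 26.4% of these striatal cells held both transcripts at this depth.

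The level was then followed with distance from white matter over all tissue. Cryab in astrocyte-like cells fell from 5.96 to 13.8 inside white matter to 4.11 to 7.58 within 100 µm of it and to 2.20 to 4.06 at 100 to 250 µm. It was higher again beyond 500 µm, at 4.2, 4.23, 4.19 and 4.97, above the 100 to 250 µm value in 4 of 4 sections. Within striatum alone Cryab was at 1.91, 3.99, 1.34 and 2.99 at 100 to 250 µm, on 1 to 3 transcripts. Beyond 500 µm it was there at 2.87, 2.97, 1.88 and 4.63, so that Young replicate 2 was lower. Over all tissue S100b in oligodendrocyte-like cells was 34.6 to 59.6 inside and 64.0 to 78.5 beyond 500 µm, and in each section the value inside was the lowest of the 5 distance bins. Serpina3n in astrocyte-like cells was highest inside white matter in Young replicate 1, Young replicate 2 and Aged replicate 2; in Aged replicate 1 the value beyond 500 µm (2.22) was above that inside (2.09). In Young replicate 1 the bin at 250 to 500 µm reached 5.30 against 5.58 inside. Beyond 500 µm all 4 sections lay between 2.22 and 2.46.

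**Figure D4:**
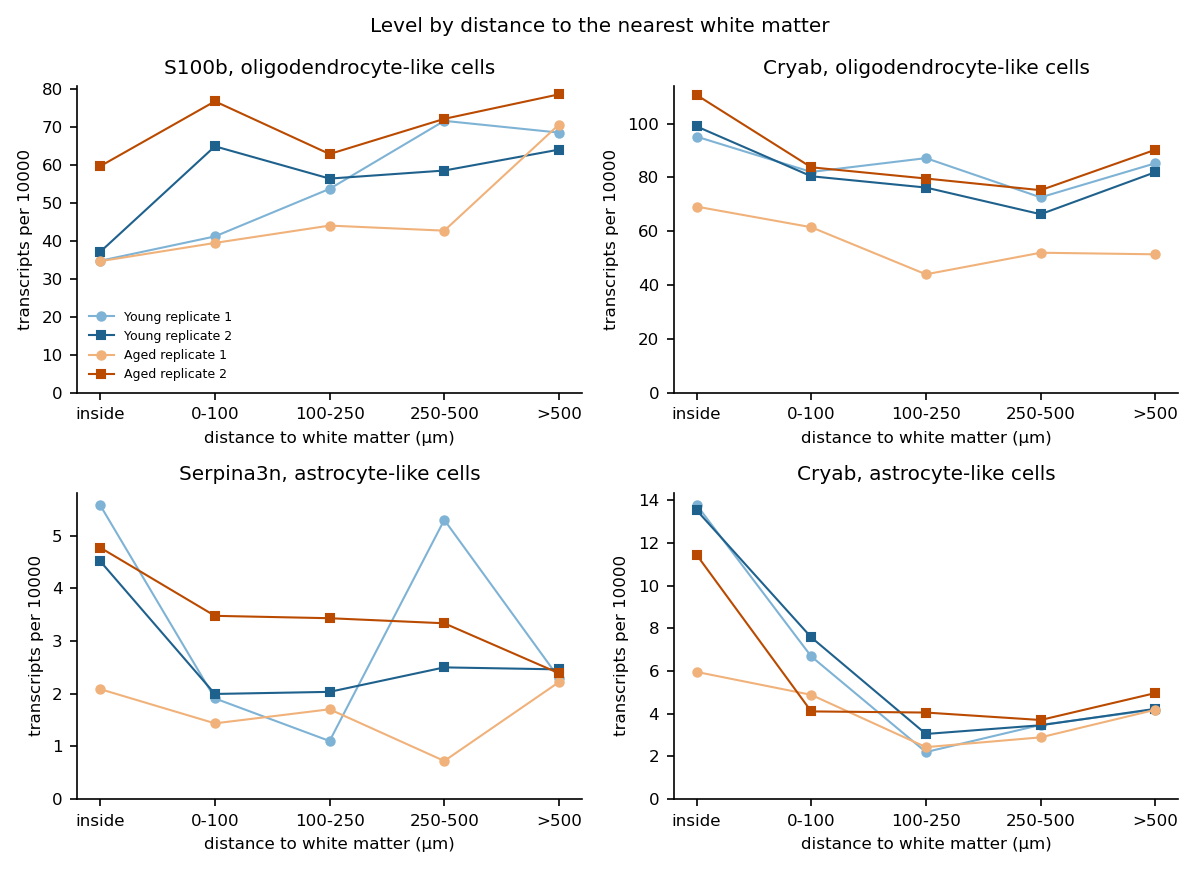
Level in transcripts per 10000 (linear axes from 0) by distance to the nearest white matter in µm (5 bins, not to scale), for S100b and Cryab in oligodendrocyte-like and Serpina3n and Cryab in astrocyte-like cells; each line is 1 section. Over all tissue, S100b is lowest inside white matter in each section, and Cryab in astrocyte-like cells falls within the first 250 µm and is higher again beyond 500 µm.

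Age changes were tested in all 7 classes over the whole section. Of 28 gene and class combinations 26 could be tested (Serpina3n and S100a6 were too low in microglia-like cells) and 0 passed an adjusted p of 0.05, with adjusted p-values from 0.2 to 0.994 (edgeR, quasi-likelihood). An unadjusted p under 0.05 was reached by 1, and DESeq2, which gave no adjusted p for some of them, called 0. Over all tested genes the share past the threshold was 3.49% of 372 in astrocyte-like, 6.05% of 380 in oligodendrocyte-like, 12% of 299 in OPC-like, 0.612% of 327 in microglia-like and 0.261% of 383 in vascular-like cells. It was 0% of 383 in medium spiny neuron-like cells (25 at an unadjusted p under 0.05, 0 called by DESeq2) and 0% of 383 in neuron-like cells (15 at an unadjusted p under 0.05, 1 called by DESeq2). Both aged sections lay above both young ones, or both below, in 6 of 28 combinations of these genes, against 44.8% of the 2681 combinations of all genes.

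Serpina3n in the oligodendrocyte lineage had the largest age estimates, short of the threshold. In oligodendrocyte-like cells both aged sections (1.81 and 3.07) lay above both young ones (1.59 and 1.15), a log2 fold change of 0.76 (standard error 0.34, adjusted p = 0.2, edgeR) and the one unadjusted p under 0.05 (0.0365). In OPC-like cells the order was the same, 3.61 and 5.72 above 2.42 and 2.72 (log2 0.72, standard error 0.40, adjusted p = 0.248, edgeR). The OPC-like estimate was 0.39 without Aged replicate 2, 1.01 without Aged replicate 1 and 0.0681 with mixed cells kept. Within striatum the aged oligodendrocyte-like values were 1.63 and 3.29 against 1.46 and 1.12, and within white matter 1.73 and 2.97 against 1.40 and 0.667. Without Aged replicate 2 the fold change in oligodendrocyte-like cells was 0.35, and with mixed cells kept 0.27. The 6 oligodendrocyte markers in the same sums were lower in aged sections (2999 and 2961 per 10000 at 2 months, 2695 and 2612 at 18), and the 7 astrocyte markers higher (64.2 and 71.3 at 2 months, 89.7 and 76.3 at 18). In OPC-like cells oligodendrocyte markers were at 301 and 251 at 2 months and 94.9 and 107 at 18, and astrocyte markers at 248 and 313 against 479 and 494. White matter covered 1.09 and 1.385 mm2 in the young and 2.22 and 2.10 mm2 in the aged sections. The part of these in the Serpina3n values was not tested. In astrocyte-like cells Serpina3n averaged 2.62 ± 0.182 at 2 months and 2.36 ± 0.636 at 18 months (SD, n = 2 each), with a log2 fold change of −0.14 (standard error 0.27, adjusted p = 0.873, edgeR).

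S100b did not pass in any class. Its astrocyte-like level was 44.8 ± 3.58 at 2 months and 50.3 ± 9.21 at 18 months (SD, n = 2 each, log2 0.18, standard error 0.16, adjusted p = 0.659, edgeR), and its oligodendrocyte-like level 51.3 ± 0.819 and 56.9 ± 14.8 (SD, n = 2 each, log2 0.0654, standard error 0.20, adjusted p = 0.875, edgeR). Without Aged replicate 2 these fold changes were −0.00249 and −0.20. White matter held 908 of 2733 and 1286 of 3371 unmixed oligodendrocyte-like cells at 2 months, and 2282 of 5334 and 2032 of 4860 at 18. In these cells S100b was lower in white matter than in striatum and Cryab higher. The part of this shift between zones in their whole-section age values was not tested. In OPC-like cells both aged values (95.8 and 126) lay below both young ones (131 and 127), the second by little, with a log2 fold change of −0.34 (standard error 0.19, adjusted p = 0.253, edgeR). It was −0.17 without Aged replicate 1, −0.52 without Aged replicate 2 and −0.0345 with mixed cells kept. Microglia-like cells (23 and 28.1 at 2 months, 32.8 and 41.7 at 18) and medium spiny neuron-like cells (10.01 and 11.5 at 2 months, 12.5 and 14.8 at 18) went the other way without overlap (log2 0.34 and 0.33, adjusted p = 0.345 and 0.744, edgeR).

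Cryab and S100a6 overlapped between ages in the 7 classes, with the exception of S100a6 in microglia-like cells (0.580 and 0.828 at 2 months, 1.29 and 1.0 at 18, on 6 to 11 transcripts). Cryab in oligodendrocyte-like cells averaged 88.5 ± 0.292 at 2 months and 80.3 ± 27.3 at 18 months (SD, n = 2 each, log2 −0.22, standard error 0.20, adjusted p = 0.62, edgeR). Its 2 aged sections, 61.0 and 99.6, lay on either side of both young ones. Without Aged replicate 2 the fold change was −0.60 and passed (adjusted p = 0.0483, edgeR), and without Aged replicate 1 it was 0.11. In astrocyte-like cells the log2 fold change was −0.0523 for Cryab and 0.12 for S100a6 (standard errors 0.22 and 0.27, adjusted p = 0.934 and 0.884, edgeR).

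**Figure D5:**
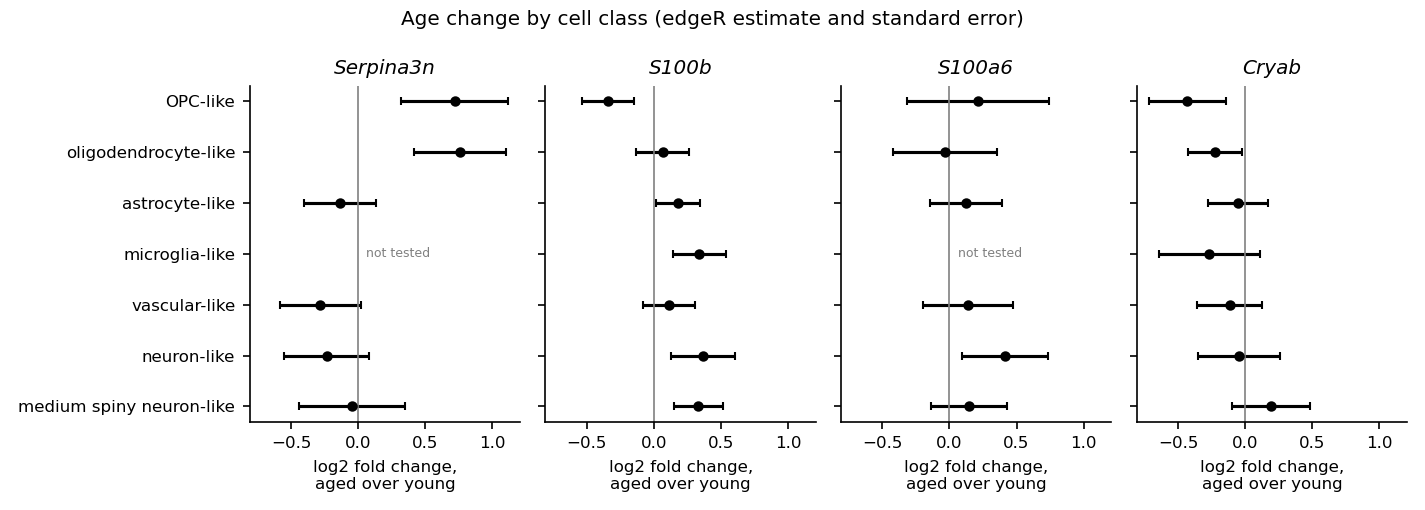
Log2 fold change of aged over young sections for each gene in 7 classes (points, edgeR estimates from 2 sections per age; bars, standard error; grey line, no change). Serpina3n has its largest estimates in oligodendrocyte-like (0.76) and OPC-like cells (0.72), and none of the 26 estimates passed the threshold.

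The change with age was also set against tissue zone. In astrocyte-like cells 0% of the 280 genes tested differed in their age change between white matter and striatum (20 at an unadjusted p under 0.05, 0 called by DESeq2), and in oligodendrocyte-like cells 1.74% of 345 did. None of the 8 combinations of these genes passed. The nearest was S100b in oligodendrocyte-like cells: aged over young, white matter exceeded striatum by 0.61 on the log2 scale (standard error 0.15, adjusted p = 0.0679, interaction term in edgeR). From 2 to 18 months the white matter values went from 34.7 and 37.1 to 34.6 and 59.6, and the striatal values from 76.3 and 75.6 to 62.3 and 89.7. In cells with no astrocyte marker this difference was 0.10. Cryab was next, at 0.41 (standard error 0.16, adjusted p = 0.229, edgeR).

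Genes with which these 4 are usually read were taken from 3 lists. Of 11 reactive astrocyte genes, 1 rose with age in astrocyte-like cells, 0 fell and 10 did not pass (median log2 fold change 0.42, against 0.0137 over all genes tested). This was C3, a complement component, at 2.42 and 1.76 per 10000 at 2 months, 6.62 and 10.8 at 18 (log2 2.07, standard error 0.30, adjusted p = 0.00395, edgeR). It did not pass with limma (adjusted p = 0.0773), at Louvain resolution 0.3 (log2 0.38, adjusted p = 0.692, edgeR) or without cells holding 2 neuroblast markers (log2 2.04, adjusted p = 0.111, edgeR). In striatum alone C3 was at 1.52, 1.49, 1.68 and 13.7, so that Aged replicate 2 alone was high. The 4 neuroblast markers in the same astrocyte-like sums were at 138 and 165 per 10000 at 2 months and 40.8 and 61.6 at 18, each lower in both aged sections. Without the astrocyte-like cells that held 2 neuroblast markers, 0 of 369 genes passed for age, against 13 of 372 with them. The part of these markers in the age values was not tested beyond this. Of 5 genes of disease-associated oligodendrocytes, 2 rose in oligodendrocyte-like cells and 3 did not pass (median 0.68, against 0.0195). C4b, another complement component, rose from 4.56 and 4.40 to 39.4 and 28.0 (log2 2.82, standard error 0.22, adjusted p = 4.68e-09, edgeR). Il33, an alarmin cytokine, rose from 214 and 235 to 449 and 391 (log2 0.81, standard error 0.17, adjusted p = 0.00394, edgeR). C4b passed in 16 of 16 other settings, and Il33 in 13, failing with limma, with the replicate block and without Young replicate 1. Whether the C4b probes also bind the near-identical C4a transcript was not examined. Of 6 cellular stress genes 0 passed with age in either class, with medians of −0.0884 in astrocyte-like and −0.30 in oligodendrocyte-like cells.

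By zone, 3 of the 6 reactive astrocyte genes that could be tested were higher in astrocyte-like cells of the white matter and 0 lower (median 1.22, against 0.0299 over all genes). Of all 252 genes tested there 40.1% passed, 53 higher and 48 lower. Gfap, the intermediate filament protein of reactive and fibrous astrocytes, went from 17.8 to 43.5 per 10000 in striatum to 383 to 591 in white matter (log2 4.30, standard error 0.32, adjusted p = 7.49e-05, edgeR). Vim, another intermediate filament gene, went from 7.20 to 29.99 in striatum to 56.6 to 102 (log2 2.75, adjusted p = 0.00131, edgeR), and C4b from 26.0 to 49.2 in striatum to 53.1 to 153 (log2 1.51, adjusted p = 0.000919, edgeR). Il33 was lower in white matter there (log2 −1.35, adjusted p = 0.00339, edgeR). In oligodendrocyte-like cells 4 of 7 tested genes of the same list were higher in white matter. Of all 314 genes tested there 33.4% passed, 50 higher and 55 lower. Of the 4, Gfap (log2 3.53) and Vim (1.76) had the largest fold changes. C4b passed in 3 of 16 other settings and failed on leaving out any 1 section. Of the 6 stress genes Jun was higher (0.57, adjusted p = 0.00864, edgeR). Jun passed in 10 of 16 other settings, neither without Young replicate 2 nor without Aged replicate 2. H2-K1, a class I histocompatibility gene of the oligodendrocyte list, was higher by 1.08 (adjusted p = 0.00271, edgeR). Its level was low, at 0.788 to 1.63 per 10000 in striatum and 1.57 to 2.69 in white matter. It passed in 13 of 16 other settings, failing with DESeq2 and with the stricter mixed rule, and was too low to be tested in cells without astrocyte markers. Gfap in those oligodendrocyte-like sums went from 6.2 to 18.5 per 10000 in striatum to 73.6 to 150 in white matter, while the 7 astrocyte markers, of which Gfap is no member, are given above.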

How the data were processed

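MERFISH counts of 4 sections were analysed, 2 per age. The authors decoded the images with MERLIN, segmented cells and deposited raw transcript counts per cell for 383 genes, with each cell's position and volume; the volume and a table of mean values per gene are deposited as signal, not normalized, and that table matched the means of the counts. The inner names of the Young files carry other numbers than the labels. Cells with at least 10 genes and 50 µm3 were kept. Counts per 10000 were log transformed, scaled and reduced to 15 principal components, a 20-neighbour graph was clustered (Louvain, resolution 0.08; 1.0 for finer clusters; python-igraph 0.11.9), and clusters were named from fixed markers. The 4 genes and the genes of 3 lists were left out of the clustering. No doublet caller was run; mixed cells were removed by markers.

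Unmixed counts were summed per class, zone and section and tested with edgeR 4.0.16 (quasi-likelihood, TMM, filterByExpr), with Benjamini-Hochberg adjustment over all genes tested and a threshold of 0.05. Sections were blocked in zone comparisons. DESeq2 1.42.0 and limma 3.58.1 (prior count 2), other filters, cell rules and zone limits and leaving out each section were alternatives. The fit was tested on simulated counts with 200 changed genes: for age in oligodendrocyte-like cells 97.8% of 2-fold or larger changes were called. The simulated spread between sections was a fixed value for all genes, not estimated from these data. This share therefore need not hold for the real age tests, or for genes with few transcripts. Named genes were the 4 genes, the 3 most alike panel genes of each, and at most 4 list genes past the threshold per comparison. The genes and lists were chosen with earlier results of these data known. Same-numbered sections deviated with a correlation of −0.0615 (astrocyte-like) and −0.16 (oligodendrocyte-like), so numbers were not taken as pairs. Blank barcodes and probe sequences were not analysed here.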

Additional observations from a re-analysis of the deposited data

Results flagged for a closer look

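S100b moved in opposite directions with age in different classes when section means are compared. Both aged sections lay below both young ones in OPC-like cells (log2 ratio of means −0.22) and above them in medium spiny neuron-like cells (0.34) and microglia-like cells (0.54). The ratio in OPC-like cells was exceeded by that in medium spiny neuron-like cells by 0.56 and by that in microglia-like cells by 0.76. The difference between classes was not tested, and none of the 3 age changes passed an adjusted p of 0.05 in its own class. With mixed cells kept the fitted age change in OPC-like cells was −0.0345, and it ranged from −0.52 to −0.17 on leaving out 1 section.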

How the results depend on the processing

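Of 613 values of 41 results under other settings, 550 kept direction and side of the threshold, 8 kept direction but lost their call, 7 gained one and 48 took the other direction. Of the 48, 0 passed under the alternative and 1 had passed before, S100b between zones in oligodendrocyte-like cells with mixed cells kept. Cryab (1.48 to 2.22 over 17 settings) and Serpina3n (0.97 to 1.42 over 15) stayed higher in white matter than in striatum in astrocyte-like cells and passed in each; Serpina3n was too low to test with the stricter mixed rule and without oligodendrocyte markers. The causes of the following changes were not tested. With mixed cells kept, the white matter difference in oligodendrocyte-like cells was 0.12 for S100b, 0.80 for Serpina3n and 0.70 for S100a6, the last pair past the threshold (adjusted p = 0.00316 and 0.0105, edgeR), and age gave 0.13 for Cryab in microglia-like, 0.0283 for Cryab in neuron-like and 0.41 for S100a6 in oligodendrocyte-like cells. With the stricter mixed rule Cryab differed by 0.41 between zones in oligodendrocyte-like cells, short of the threshold; age gave 0.14 for Cryab in astrocyte-like and 0.44 for S100a6 in oligodendrocyte-like cells, and the zone difference of the age change −0.25 for Serpina3n in oligodendrocyte-like cells. Without cells holding a marker of the partner class, the values were 0.0421 (age, Cryab, astrocyte-like), −0.0584 and 0.44 (age, S100b and S100a6, oligodendrocyte-like), −0.22 and 0.22 (zone, Serpina3n and Cryab, oligodendrocyte-like) and −0.68 (zone difference of the age change, Serpina3n, astrocyte-like). That last quantity was also −0.0612 at Louvain resolution 0.3, −0.0683 with at least 20 genes per cell, −0.0833 without TMM, −0.0358 with white matter from 60% and −0.0835 without cells that hold 2 neuroblast markers. In oligodendrocyte-like cells the zone difference of the S100b age change passed at resolution 0.3 (0.67), with 20 genes (0.57) and with white matter from 60% (0.62), as did that of Cryab at resolution 0.3 (0.39). Clustering on all genes gave −0.20 (age, S100a6, OPC-like), 0.20 (age, Serpina3n, vascular-like) and 0.0802 (zone, S100b, astrocyte-like). Without TMM the values in oligodendrocyte-like cells were 0.0632 (age, S100a6) and −0.17, −0.13 and 0.20 (zone, Serpina3n, S100a6 and Cryab). With limma they were 0.00473 (age, S100a6) and −0.61 and 0.49 (zone, S100b and Cryab, both short of the threshold).

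Leaving out each section in turn, age changes ranged from −0.43 to 0.0783 (Serpina3n), −0.00249 to 0.32 (S100b), −0.0527 to 0.29 (S100a6) and −0.22 to 0.0730 (Cryab) in astrocyte-like cells, and from −0.20 to 0.33 (S100b), −0.33 to 0.34 (S100a6) and −0.60 to 0.11 (Cryab) in oligodendrocyte-like cells. They ranged from −0.25 to 0.61 (S100a6, OPC-like), −0.71 to 0.42 (Serpina3n), −0.0246 to 0.35 (S100a6) and −0.0947 to 0.46 (Cryab) in medium spiny neuron-like, −0.77 to 0.23 (Cryab, microglia-like), −0.55 to 0.0127 (Serpina3n) and −0.39 to 0.22 (Cryab) in neuron-like, and −0.00534 to 0.23 (S100b) and −0.43 to 0.15 (Cryab) in vascular-like cells. Zone differences in oligodendrocyte-like cells ranged from −0.79 to −0.52 (S100b) and 0.39 to 0.54 (Cryab). The zone difference of the age change ranged from −0.14 to 0.42 (S100b, astrocyte-like) and −0.81 to 0.0376 (S100a6, oligodendrocyte-like). A fit with 1 section of an age assumes that it varies like the others.

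With the replicate number as a block, the age change of Serpina3n was 0.72 in both oligodendrocyte-like and OPC-like cells and no call of the 4 genes changed; over all genes the block moved the calls from 23 to 1 in oligodendrocyte-like and from 13 to 21 in astrocyte-like cells. Crossed numbers, added after the data were seen, gave 44 and 2. Over all settings the number of genes called for age in astrocyte-like cells ranged from 0 to 47 (stricter mixed rule). The 0 was reached at resolution 0.3, with limma and without cells that hold 2 neuroblast markers. For age the number ranged from 1 to 44 in oligodendrocyte-like cells and from 2 to 36 in OPC-like cells against 36. It ranged from 0 to 49 in microglia-like cells against 2 and from 0 to 13 in vascular-like cells against 1. In medium spiny neuron-like cells it ranged from 0 to 12 and in neuron-like cells from 0 to 7, both against 0. Between zones it ranged from 64 to 136 in astrocyte-like cells against 101 and from 57 to 253 in oligodendrocyte-like cells against 105, and for the zone difference of the age change from 0 to 1 against 0 and from 0 to 37 against 6. In simulated counts for that last test, with the fixed spread described above, 73.2% of changes of 2-fold or more were called in oligodendrocyte-like and 64.5% in astrocyte-like cells.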
